A study of Zea mays with 18 samples.

Results

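The 93 maize genes described here, out of 34474 measured, were chosen by the names of the protein matches that the authors list for each gene. Those names gave a glucan endo-1,3-beta-glucosidase (33 genes), a chitinase (22), a thaumatin-like protein (23) or another pathogenesis-related protein (15). The name used need not be that of the best match, and a gene was put in the earliest of these classes that applied. No gene had to be dropped for carrying the words transcription factor, but the name rule also took in 3 genes matched to PTI6-like activators of pathogenesis-related genes, which are regulators rather than enzymes. Of the 33 genes of the first class, 4 were named glucosidase-like protein, and all 33 are called glucanases below. The names are sequence matches, and no enzyme activity was measured.

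Glucan endo-1,3-beta-glucosidases, or beta-1,3-glucanases, cut beta-1,3-glucan, the polymer of callose. Callose lines plasmodesmata and sieve pores and is laid down at wounds and infection sites, and the same bond occurs in fungal walls. Chitinases cut chitin, which plants do not make and which stiffens fungal walls and insect cuticle. Thaumatin-like proteins form the PR-5 family, several of which inhibit fungal growth in vitro, and the small secreted PR-1 proteins are widely used markers of the salicylic acid response. Many genes of these families are also expressed in healthy tissue during wall remodelling, senescence and reproductive development.

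RNA was measured in stem by sequencing of poly-A RNA in 18 libraries, 2 for each of 9 groups. The groups cross 3 hybrids that share the parent Dan 598 with 3 stages. The hybrids were labelled low (Dan 598xFAPW), middle (Dan 598xCML444) and high (Dan 598xES40) for plant height, and the stages were jointing, when internodes start to elongate, big flare, and tasseling, when the tassel emerges. Each height class was a single hybrid, so height and genotype cannot be told apart. Nothing in the labels ties the 2 libraries of a group to different plants. The p-values below therefore speak for variation among libraries, part or all of which could be technical.

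Levels are FPKM, fragment counts scaled by transcript length and by the number of mapped fragments of the library, as the authors deposited them. The absolute depth is unknown. The relative depth recovered from low values ran from 0.426 (high hybrid, big flare, replicate 1) to 1 (low hybrid, tasseling, replicate 2). Every tasseling library, at 0.625 or more, was deeper than every big flare library, at 0.619 or less. The part of this in the rises of genes at or near 0 at big flare was not tested. Of the 18 libraries, 12 were most correlated with their own replicate. Of the others, 4 were closest to a library of another stage of the same hybrid: replicate 2 of jointing and replicate 1 of big flare in the low hybrid were closest to each other (r = 0.914 across genes), and in the high hybrid replicate 1 of jointing was closest to big flare (r = 0.91) and replicate 2 of jointing to tasseling (r = 0.905). The KNOX homeobox genes that mark the stem meristem were above 0 in every library (3 of 3). So were 11 of 17 xylem and cellulose synthase genes, named for xylem cysteine proteinases, IRREGULAR XYLEM or any cellulose synthase A catalytic subunit. That list is not limited to the secondary wall. Of 20 genes named for pollen proteins, 4 reached 1 FPKM in at least 2 libraries.

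Most of the 93 genes were weakly expressed in stem. The mean over the 18 libraries was 5 FPKM or more for 33 of them and under 1 FPKM for 39, and 35 were above 0 in all 18 libraries. The median of these means was 4.06 FPKM for the glucanases, 4.29 for the thaumatin-like genes, 0.717 for the chitinases and 0.298 for the remaining pathogenesis-related genes, beside 2.42 over all 93. Together they made up between 0.0426% and 0.239% of the summed FPKM of a library. A single gene held most of the signal in 2 of the classes. The basic endochitinase Zm00001d027524, at a mean of 175.7 FPKM, gave 79% of the summed FPKM of the chitinases, and the pathogenesis-related protein 2 gene Zm00001d003379 gave 74.4% of that of the remaining pathogenesis-related genes. The glucanases and thaumatin-like genes were spread more widely: the leading genes, Zm00001d022059 and Zm00001d030303, gave 16.9% and 24.4% of their class sums.

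**Figure D1:**
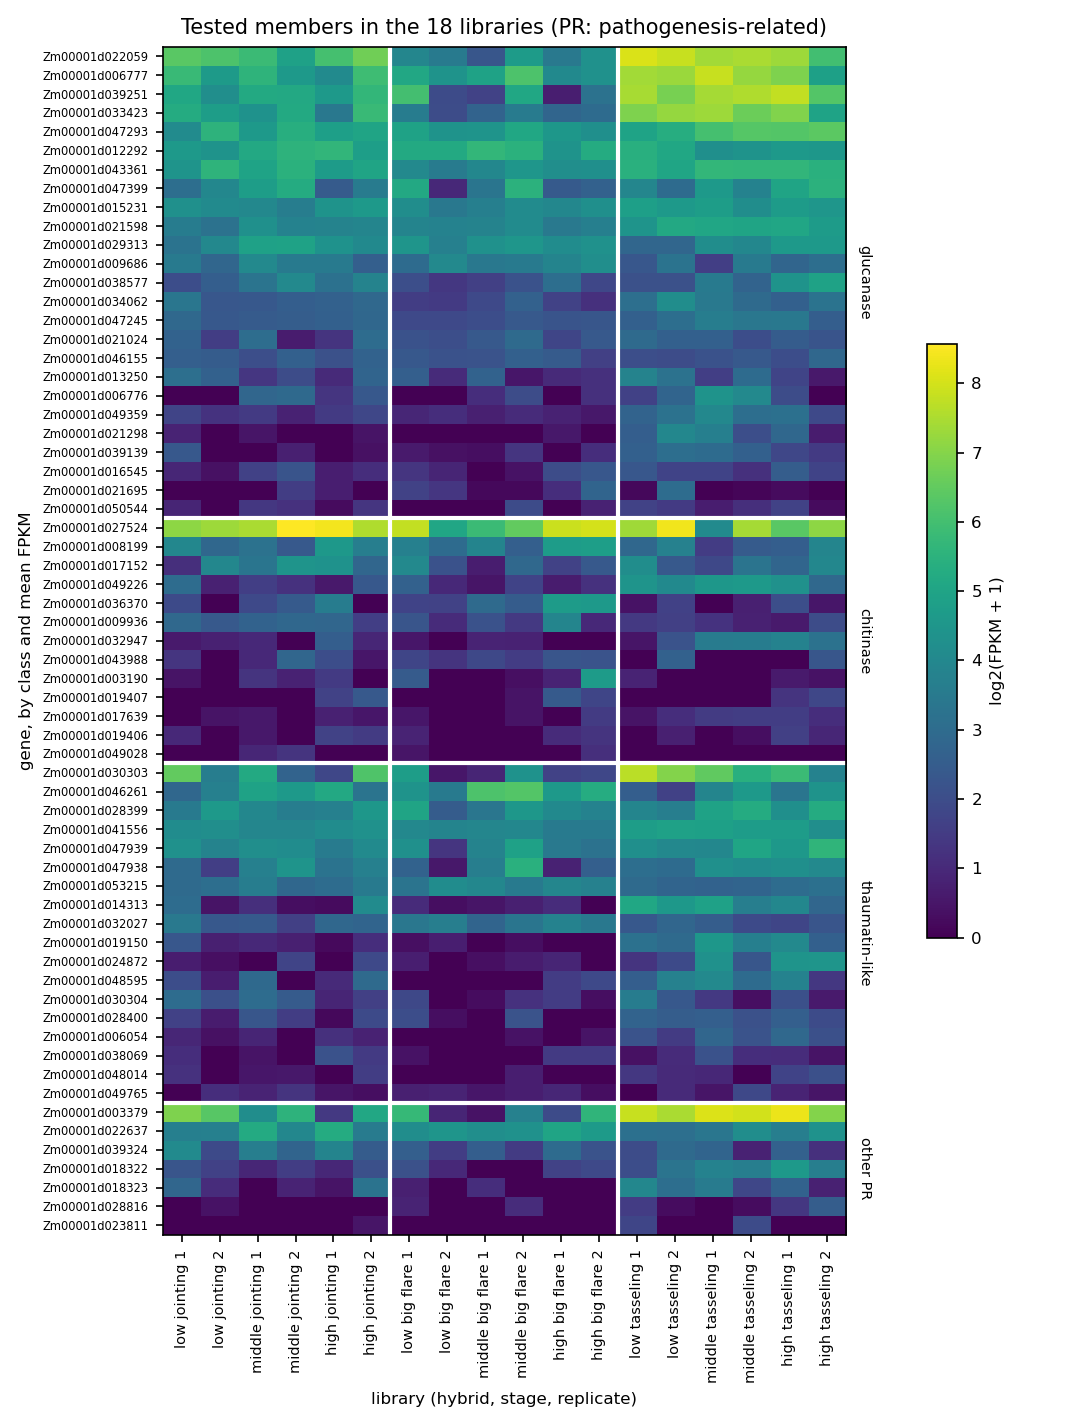
Level of the 63 tested genes, as log2(FPKM + 1), in the 18 libraries, grouped by class (rows) and by stage (columns, white lines); brighter is higher. The bright rows at the top of the chitinases and of the other pathogenesis-related genes are Zm00001d027524, bright in nearly every column, and Zm00001d003379, brightest in the 6 tasseling columns.

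Differences were tested with limma on log2(FPKM + 1) over the 26792 genes with at least 1 FPKM in at least 2 libraries. A gene passed at an adjusted p (Benjamini-Hochberg over those genes) below 0.05, and changes are given on that log2 scale, which understates the change of weakly expressed genes, ± the standard error. Stage comparisons average over the 3 hybrids and hybrid comparisons over the 3 stages, with 6 libraries a side. Of the 93 genes, 63 entered the tests: 25 glucanases, 13 chitinases, 18 thaumatin-like genes and 7 others. The 30 that did not were near 0: 21 were above 0 in 3 libraries or fewer, 8 reached 1 FPKM in a single library, and the highest value among them was 2.33 FPKM, for the PR-1-type gene Zm00001d018737 in replicate 1 of big flare in the high hybrid. Among the tested genes, Zm00001d021298 and Zm00001d023811 reached 1 FPKM in tasseling libraries alone and Zm00001d019406 and Zm00001d019407 in libraries of the high hybrid alone, so they entered the tests through the side on which they were high.

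The main change came between big flare and tasseling. Of the 63 tested genes, 32 passed as higher at tasseling, where 22.4% of all tested genes did, and 8 passed as lower, where 19.2% did, and in either direction 63.5% of the 63 passed, beside 41.6% of all tested genes. By class, 16 of 25 glucanases, 10 of 18 thaumatin-like genes, 3 of 13 chitinases and 3 of 7 other pathogenesis-related genes were higher, and 2, 3, 2 and 1 were lower. The median change of the 63 was 0.88, beside 0.01 over all tested genes. All 6 tasseling libraries lay above all 6 big flare libraries in 16 genes (9 glucanases, 5 thaumatin-like genes, 1 chitinase and Zm00001d003379), a separation found in 9.82% of all tested genes, and all 6 lay below in 1 (8.11% of all). Both the 32 and the 16 include Zm00001d021298, which entered the tests through tasseling libraries alone. Within each hybrid, the change had the averaged direction in all 3 hybrids for 30 of the 32 higher genes; the exceptions were the glucanase-like gene Zm00001d016545 and the thaumatin-like gene Zm00001d047938.

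**Figure D2:**
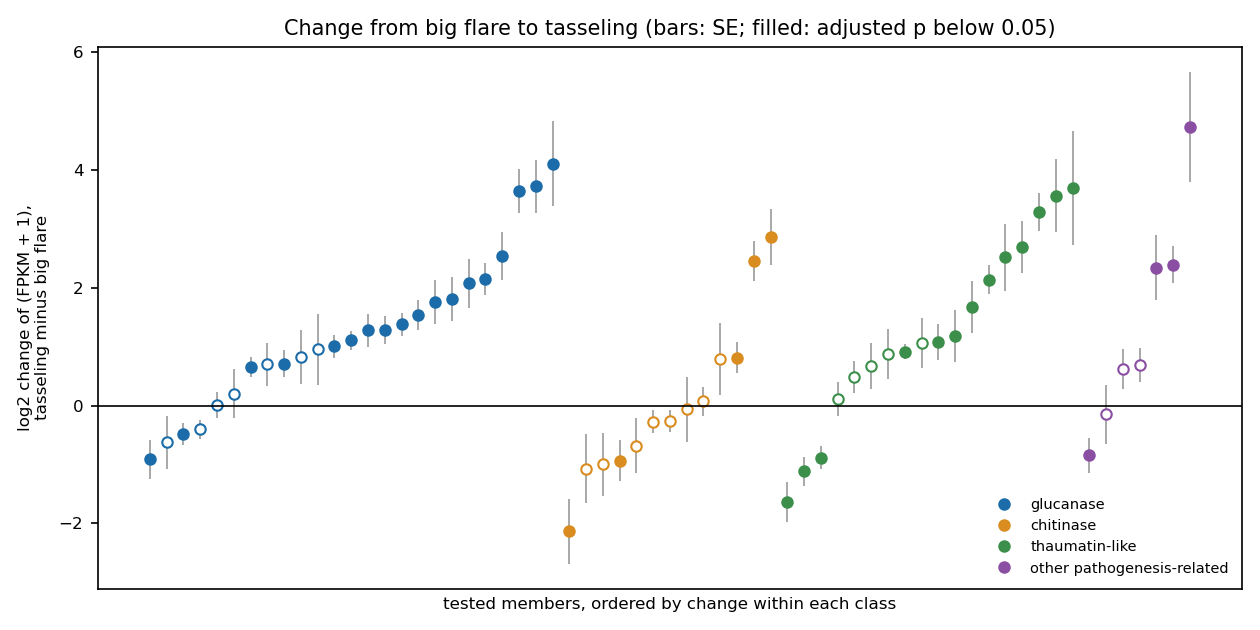
Change from big flare to tasseling of each of the 63 tested genes, as the difference in log2(FPKM + 1) averaged over 3 hybrids (bars: standard error; filled points: adjusted p below 0.05), ordered within each class. Filled points above 0 number 16 of 25 for glucanases, 3 of 13 for chitinases, 10 of 18 for thaumatin-like genes and 3 of 7 for the others.

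Other tissue markers also moved with stage. The summed FPKM of the 3 KNOX genes ran from 134.8 to 194.6 at big flare and from 34.27 to 60.57 at tasseling, without overlap, and from 83.77 to 139.5 at jointing. The 46 MADS-box genes, which include the floral organ identity genes, had summed FPKM of 395.7 to 530.1 (jointing), 767.6 to 1117 (big flare) and 462.1 to 740 (tasseling), with no member at 0 throughout and 12 above 0 in every library. The 20 pollen-named genes summed to 24.71 to 74.51, 49.52 to 166.7 and 16.66 to 47.44 in that order, with 2 of them above 0 in every library. The 16 chlorophyll a-b binding genes of green tissue summed to 2236 to 7269, 1810 to 3684 and 2497 to 4868, and the 17 xylem and cellulose synthase genes to 766.2 to 2273, 290.6 to 1082 and 658.4 to 4143. The part of these shifts in the changes with stage described here was not tested. In whole stem, fewer cells of a type and less RNA per cell cannot be told apart.

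Among the beta-1,3-glucanases, the enzymes that remove callose, the 4 most abundant genes all rose between big flare and tasseling. The most abundant was Zm00001d022059, matched to glucan endo-1,3-beta-glucosidase 3. Its jointing libraries read 81.3 and 70.7 FPKM in the low hybrid, 55.8 and 29 in the middle hybrid and 64.7 and 103 in the high hybrid. At big flare the same hybrids read 14.4 and 10.7 (low), 3.89 and 25.1 (middle) and 10.1 and 19.2 (high), and at tasseling 268 and 229.8 (low), 167 and 177 (middle) and 159 and 62.1 (high). Every big flare library thus lay below every jointing library and every tasseling library. The fall from jointing to big flare was -2.29 ± 0.38 (adjusted p = 0.00369) and the rise to tasseling 3.63 ± 0.38 (adjusted p = 3.58e-05). Tasseling also exceeded jointing, 1.35 ± 0.38 (adjusted p = 0.0175), although the high hybrid's second tasseling library lay within the jointing range.

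Zm00001d033423, a glucanase matched to isoform 7, had the same order of stages. It ran from 9.77 to 55.6 FPKM (median 30.7) at jointing, from 3.01 to 11 FPKM (median 6.48) at big flare and from 30.6 to 159 FPKM (median 121) at tasseling. Its tasseling libraries all lay above its big flare libraries, and its high jointing libraries read 9.77 and 55.6, so that the first of them fell within the big flare range. The changes were -1.86 ± 0.45 (adjusted p = 0.02) into big flare and 3.72 ± 0.45 (adjusted p = 7.18e-05) into tasseling. The first of these calls was lost when replicate 2 of low big flare (adjusted p = 0.0633), replicate 2 of middle jointing (0.0592) or replicate 1 of middle big flare (0.0603) was left out.

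Zm00001d039251, a glucanase-like gene, showed how unevenly the big flare replicates could behave. At big flare it read 63.5 and 2.85 FPKM in the low hybrid, 2.24 and 33 in the middle hybrid and 0.65 and 8.4 in the high hybrid, while tasseling ran from 77.3 to 220 FPKM (median 172). All 6 tasseling libraries were above the highest big flare library, and the rise was 4.10 ± 0.72 (adjusted p = 0.000776). Against jointing the change was 2.22 ± 0.72 (adjusted p = 0.0357), a call lost in 9 of the 18 cases with 1 library left out, with adjusted p up to 0.0973 without replicate 1 of high tasseling.

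Zm00001d006777 and Zm00001d006776 share a listed protein match, so reads may have been divided between them if their sequences are near-identical. Zm00001d006777 ran from 15.7 to 72 FPKM (median 24.9) at big flare and from 27.9 to 231 FPKM (median 151) at tasseling, a rise of 2.07 ± 0.41 (adjusted p = 0.0017). The ranges overlapped through the second tasseling library of the high hybrid, at 27.9 FPKM. Zm00001d006776 was far lower, from 0 to 3 FPKM (median 0.575) at big flare and from 0 to 20.2 FPKM (median 4.41) at tasseling, and is taken up again with the hybrids.

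**Figure D3:**
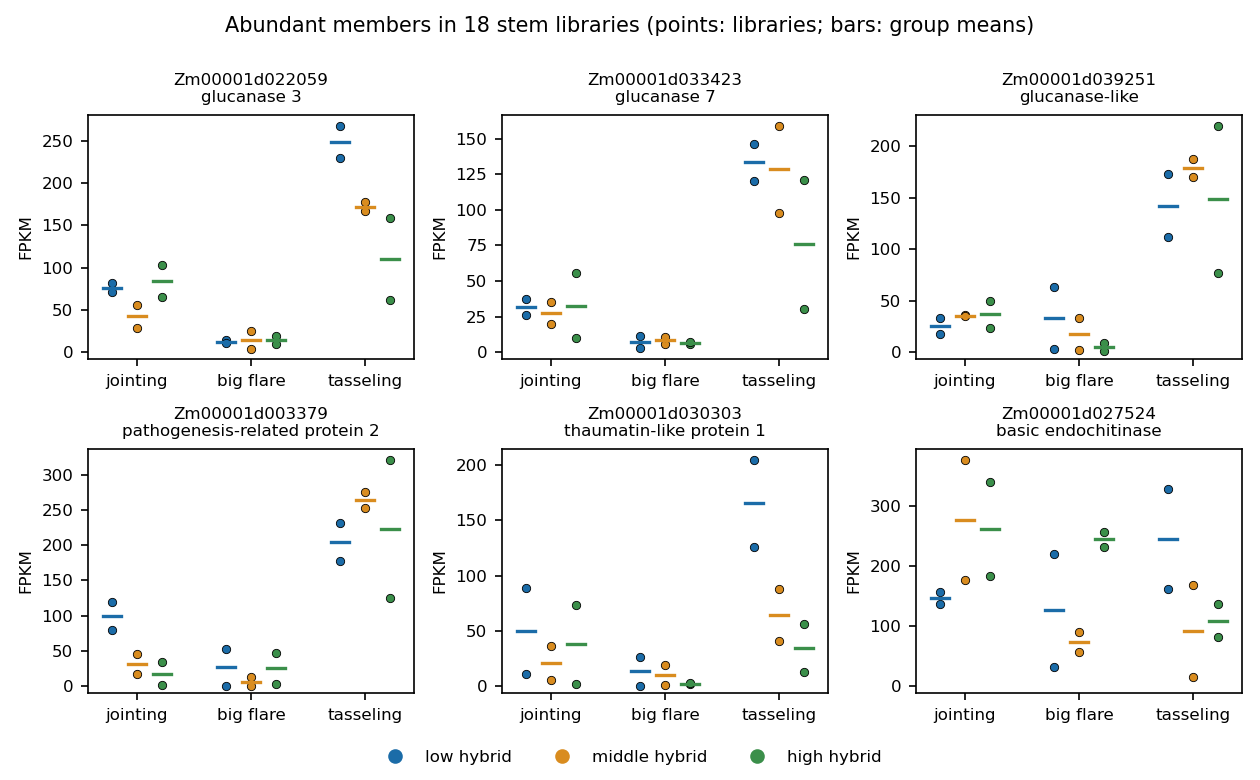
FPKM of 6 abundant genes in each library by stage (x axis) and hybrid (colour); points are libraries and bars the mean of a group's 2 libraries. In the 3 glucanases and Zm00001d003379 every tasseling point lies above every big flare point, whereas the basic endochitinase Zm00001d027524 ranges from 16.2 to 378 FPKM with the stages overlapping.

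The glucanase rise extended to genes of middle and low abundance. Zm00001d043361 (isoform 1) ran from 20.4 to 46.3 FPKM (median 30.5) at jointing, from 10.9 to 21.5 FPKM (median 16.7) at big flare and from 32.2 to 49.4 FPKM (median 45.5) at tasseling, with changes of -0.92 ± 0.20 (adjusted p = 0.0129) and 1.38 ± 0.20 (adjusted p = 0.00022). Zm00001d021598 (isoform 3) ran from 8.37 to 18.8 FPKM (median 13.1) at jointing and from 10.1 to 16.5 FPKM (median 13.1) at big flare, ranges that overlapped, before reaching from 20.7 to 35.1 FPKM (median 31.6) at tasseling, a rise of 1.11 ± 0.16 (adjusted p = 0.000229). The weakly expressed Zm00001d049359 (isoform 6-like) rose from a range of 0.47 to 1.19 FPKM to one of 2.7 to 15.1 FPKM, 2.15 ± 0.27 (adjusted p = 8.95e-05). Zm00001d021298, matched to an acidic isoform, was listed at 0 in 5 of 6 big flare libraries and read 4.9 and 14.7 FPKM in the low, 11.9 and 3.16 in the middle and 6.27 and 0.57 in the high hybrid at tasseling (adjusted p = 0.000417). Tasseling libraries did not overlap with big flare libraries in any of these 4 genes. Zm00001d021298 entered the tests through tasseling libraries alone, so its p-value and separation are no support for the rise.

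The 2 genes of the glucanase class that passed as lower at tasseling changed less. The first, Zm00001d009686, was matched to a glucosidase-like protein. Zm00001d009686 fell from a range of 7.01 to 18 FPKM to one of 2 to 10.2 FPKM, -0.92 ± 0.33 (adjusted p = 0.0433), and Zm00001d012292 from one of 20.2 to 50.4 FPKM to one of 18.1 to 40.9 FPKM, -0.48 ± 0.18 (adjusted p = 0.0477). Both pairs of ranges overlapped, and the first tasseling library of the low hybrid, at 40.9 FPKM for Zm00001d012292, lay above both big flare libraries of that hybrid. These calls were lost in 11 and 15 of the 18 cases with 1 library left out, with adjusted p up to 0.123 (without replicate 2 of low big flare) and 0.144 (without replicate 2 of high big flare). Of the 7 tested glucanases that passed in neither direction, Zm00001d021024 was matched to A6, known in Arabidopsis and Brassica as a glucanase of the anther tapetum. It ran from 2.42 to 6.79 FPKM (median 3.85) at big flare and from 3.04 to 6.87 FPKM (median 4.87) at tasseling, a change of 0.20 ± 0.41 (adjusted p = 0.732).

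Jointing against big flare touched fewer genes. Of the 63 tested genes, 5 were lower at big flare, where 5.06% of all tested genes were, and 1 was higher, where 7.29% were, and in either direction 9.52% of the 63 passed, beside 12.4% of all tested genes. The 5 lower genes were glucanases: Zm00001d022059, Zm00001d033423 and Zm00001d043361, given above, with Zm00001d038577 and Zm00001d034062. Zm00001d038577, matched to isoform GVI, ran from 3.08 to 15.5 FPKM (median 8.5) at jointing and from 1.64 to 7.53 FPKM (median 2.87) at big flare (-1.14 ± 0.28, adjusted p = 0.0212), and Zm00001d034062 ran from 4.02 to 9.33 FPKM (median 5.15) and from 1.3 to 5.32 FPKM (median 2.07) (-0.96 ± 0.26, adjusted p = 0.0333). The ranges of both overlapped, and Zm00001d022059 was the 1 gene of the 63 with all big flare libraries below all jointing libraries (1.49% of all tested genes), beside 0 with all above (3.47%). The 1 higher gene was the thaumatin-like Zm00001d032027, which ran from 2.05 to 10 FPKM (median 5.08) at jointing and from 5.77 to 12.9 FPKM (median 9.69) at big flare (0.82 ± 0.24, adjusted p = 0.0469), and its call was lost in 16 of the 18 cases with 1 library left out, with adjusted p up to 0.124 without replicate 2 of middle jointing. With median-of-ratios scaling of the libraries, 7 genes were lower and 0 higher. The calls of Zm00001d038577 and Zm00001d034062 were lost in 6 and 7 such cases, with adjusted p up to 0.0662 (without replicate 2 of low big flare) and 0.0978 (without replicate 1 of middle big flare).

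The count for this comparison depended on single libraries. It was 6 in all, fell to 2 without replicate 2 of low big flare, replicate 2 of middle jointing or replicate 1 of middle big flare, and to 3 without replicate 2 of high jointing or replicate 2 of high big flare, and it rose to 9 without replicate 1 of low big flare. That last library stood above its replicate by more than 1 log2 unit in 18 of the 63 genes and below it in 1, together 30.2% of them beside 18.4% of all tested genes. In the other groups, between 15.9% and 42.9% of the 63 differed that far between replicates, beside 11.1% to 19% of all. The calls of Zm00001d022059 and Zm00001d043361 held whichever library was left out.

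Genes named thaumatin-like split between a group that rose at tasseling and 3 genes that fell. Zm00001d022637, matched to a PR-5-like protein, is counted by its name with the other pathogenesis-related genes and is given there. The most abundant, Zm00001d030303 (thaumatin-like protein 1), varied widely between replicates. At jointing it read 89.3 and 11.4 FPKM in the low, 36.1 and 5.65 in the middle and 2.51 and 73.1 in the high hybrid. At big flare the values were 26.4 and 0.43 (low), 0.85 and 19.5 (middle) and 2.2 and 2.55 (high), and at tasseling 205 and 126 (low), 87.9 and 41.2 (middle) and 56.7 and 12.9 (high). Stages overlapped, and within every hybrid but the high one a replicate differed several-fold from its partner at big flare. The rise to tasseling was 3.69 ± 0.97 (adjusted p = 0.0087), whereas tasseling against jointing gave 1.68 ± 0.97 (adjusted p = 0.213), which did not pass.

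Of the 5 thaumatin-like genes whose tasseling libraries all lay above their big flare libraries, 4 did not exceed 1.13 FPKM at big flare. Zm00001d019150 was listed at 0 in 3 big flare libraries and reached no more than 0.63 FPKM in the rest, and at tasseling it read 8.11 and 6.73 FPKM in the low, 22.1 and 12.1 in the middle and 15.4 and 5.23 in the high hybrid (3.28 ± 0.32, adjusted p = 2.9e-05). Zm00001d014313 ran from 0 to 1.13 FPKM (median 0.545) at big flare and from 6.09 to 33.3 FPKM (median 18.8) at tasseling (3.56 ± 0.62, adjusted p = 0.000688). Its jointing libraries stayed at or under 1.24 FPKM apart from replicate 1 of the low hybrid, at 7.1, and replicate 2 of the high hybrid, at 16.5. Zm00001d024872 read 1.43 and 2.82 at tasseling in the low hybrid, 19.1 and 3.87 in the middle and 20.8 and 21.2 in the high hybrid, above all big flare libraries, whose highest was 0.83 (2.69 ± 0.43, adjusted p = 0.000434). The abundant Zm00001d041556 moved less but with little scatter, from 10.3 to 14.8 FPKM (median 14) at big flare and from 17.9 to 28.9 FPKM (median 26.1) at tasseling (0.92 ± 0.12, adjusted p = 0.000122).

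The 3 thaumatin-like genes that fell at tasseling had their highest stage median at big flare. Zm00001d053215 ran from 6.33 to 11.5 FPKM (median 7.29) at jointing, from 8.93 to 17.2 FPKM (median 13.5) at big flare and from 5.54 to 8.01 FPKM (median 6.22) at tasseling, with every tasseling library below every big flare library (-0.88 ± 0.20, adjusted p = 0.00336). Zm00001d032027 fell to a range of 2.45 to 6.16 FPKM at tasseling (-1.12 ± 0.24, adjusted p = 0.00304), and Zm00001d046261, taken up with the hybrids, changed by -1.64 ± 0.34 (adjusted p = 0.00238). The calls of the 3 genes held whichever single library was left out. Zm00001d028399, the third most abundant of the class, passed in no stage comparison, with a change of 0.67 ± 0.39 (adjusted p = 0.194) into tasseling.

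The summed FPKM of the chitinases overlapped across the stages. It ran from 174.4 to 423.6 at jointing, from 48.86 to 352.1 at big flare and from 57.25 to 377.7 at tasseling, and whether the classes differ in their response was not tested. Most of that sum was Zm00001d027524, the basic endochitinase, which read 138 and 157 (low), 177 and 378 (middle) and 341 and 184 (high) FPKM at jointing. At big flare it read 221 and 32.7 (low), 56.6 and 89.9 (middle) and 233 and 258 (high), and at tasseling 162 and 329 (low), 16.2 and 169 (middle) and 81.6 and 138 (high). The 3 stages overlapped throughout, and replicates of a group could differ widely, as the tasseling libraries of the middle hybrid show. It passed in none of the 6 averaged comparisons, and the change into tasseling was -0.06 ± 0.55 (adjusted p = 0.942).

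**Figure D4:**
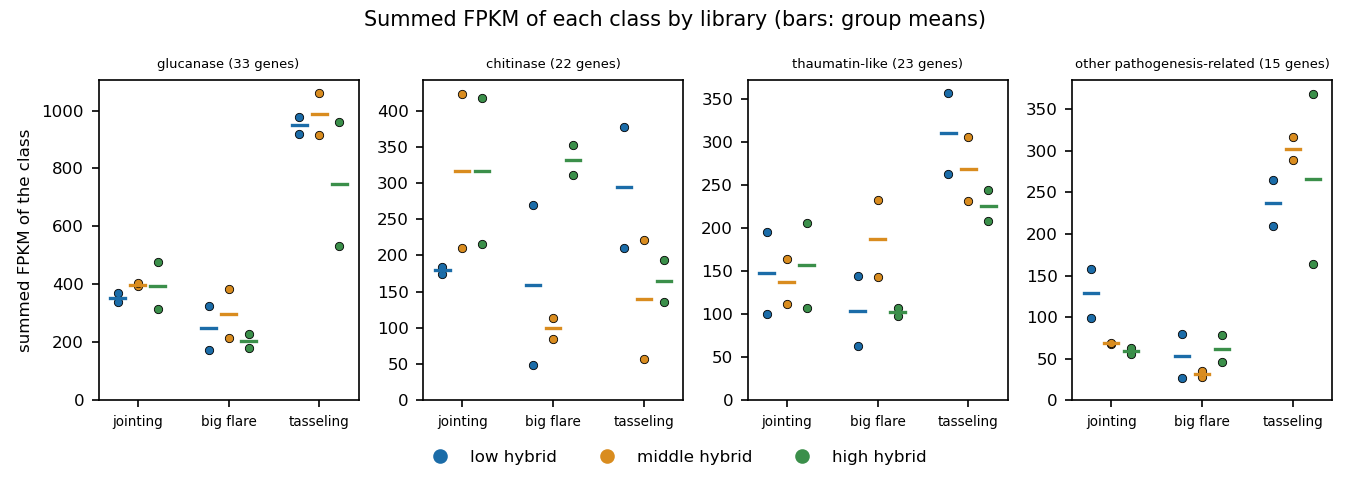
Summed FPKM of all genes of each class (33 glucanases, 22 chitinases, 23 thaumatin-like genes, 15 other pathogenesis-related genes) in each library, by stage and hybrid; bars are the mean of a group's 2 libraries. Glucanase sums at tasseling (532.2 to 1061) lie above all those at big flare (173.2 to 383.6) and jointing (313.8 to 478.6), while chitinase sums overlap across stages.

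Other chitinases moved in both directions, though no more often than genes at large. Of the 13 tested, 3 were higher and 2 lower at tasseling than at big flare. That is 38.5% in all, beside 41.6% of all tested genes (22.4% higher and 19.2% lower). Zm00001d049226, matched to chitinase-3-like protein 1, ran from 0.5 to 7.07 FPKM (median 1.67) at jointing and from 0.39 to 5.28 FPKM (median 1.16) at big flare before reaching from 6.37 to 23.7 FPKM (median 20) at tasseling, above all big flare libraries (2.86 ± 0.47, adjusted p = 0.000484). Zm00001d032947, a chitinase 2 gene, reached at most 0.79 FPKM at big flare and read 0.39 and 3.56 in the low, 10.9 and 11.1 in the middle and 13 and 8.37 in the high hybrid at tasseling (2.45 ± 0.34, adjusted p = 0.00018). Its neighbour in the RefSeq gene order, Zm00001d032946, also named for chitinase 2, was listed at 0 in all libraries but the 2 of high tasseling, at 0.25 and 0.24 FPKM. Zm00001d036370, matched to a partial chitinase, was lower at tasseling, with at most 3.13 FPKM there (-2.13 ± 0.56, adjusted p = 0.00834). Its big flare libraries read 2.34 and 2.25 FPKM in the low, 6.76 and 4.59 in the middle and 25.2 and 23.6 in the high hybrid, so that its highest values were those of the high hybrid at big flare. The endochitinase PR4 gene Zm00001d017152 passed in no comparison and ran from 0.61 to 15.4 FPKM (median 3.88) at big flare and from 2.65 to 17.6 FPKM (median 7.41) at tasseling.

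Of the other pathogenesis-related genes, Zm00001d003379 had the largest change of the 63. The gene is matched to pathogenesis-related protein 2, and its enzyme activity is not given by that name. At big flare its libraries read 52.6 and 0.85 FPKM in the low, 0.34 and 12.6 in the middle and 2.91 and 47.6 in the high hybrid, and at tasseling 231 and 178 (low), 276 and 253 (middle) and 321 and 125 (high). Jointing values were scattered too, at 119 and 79.4 (low), 17.5 and 45.9 (middle) and 1.7 and 34.5 (high). Each tasseling library was above all jointing and big flare libraries. The rise from big flare was 4.73 ± 0.94 (adjusted p = 0.00168) and held whichever library was left out. Against jointing it was 2.86 ± 0.94 (adjusted p = 0.0369), and this call was lost in 10 of the 18 cases with 1 library left out, with adjusted p up to 0.111 without replicate 1 of high jointing.

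A pair of neighbouring PR-1 genes rose together at tasseling. Zm00001d018321, Zm00001d018322, Zm00001d018323 and Zm00001d018324 are consecutive in the RefSeq gene order and all carry PR-1-type names. Zm00001d018322 ran from 0 to 3.4 FPKM (median 1.59) at big flare and from 3.06 to 23.2 FPKM (median 11.6) at tasseling (2.39 ± 0.32, adjusted p = 0.000129). Zm00001d018323 ran from 0 to 1.2 FPKM (median 0) and from 0.72 to 14.5 FPKM (median 6.5) (2.34 ± 0.55, adjusted p = 0.00458). Tasseling and big flare overlapped in both. The flanking Zm00001d018321 was listed at 0 in 17 of 18 libraries, and Zm00001d018324 did not exceed 1.42 FPKM. Zm00001d022637, matched to a PR-5-like protein, ran from 17.4 to 31.2 FPKM (median 20.3) at big flare and from 7.69 to 19.7 FPKM (median 10.4) at tasseling (-0.84 ± 0.30, adjusted p = 0.037), a call lost in 9 of the 18 cases with 1 library left out, with adjusted p up to 0.105 without replicate 1 of middle tasseling. Zm00001d039324, matched to PTI6-like, an ethylene response factor first described in tomato, passed in no comparison, with a value of -0.15 ± 0.50 (adjusted p = 0.841) into tasseling.

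Tasseling against jointing gave 21 of 63 genes higher, where 18.8% of all tested genes were, and 0 lower, where 11.1% were, with 33.3% of the 63 and 29.9% of all tested genes passing in either direction. The 21 were 10 glucanases, 5 thaumatin-like genes, 3 chitinases and 3 other pathogenesis-related genes. They too include Zm00001d021298, which entered the tests through tasseling libraries alone. No gene was lower in limma, where 31 of the 63 had an unadjusted p under 0.05 in either direction. The number lower was 1 with quantile normalization, 2 with the replicate number as a block, and 4 without replicate 1 of low big flare and replicate 2 of high jointing. The largest differences were those of Zm00001d003379, given above, Zm00001d014313 (2.62 ± 0.62, adjusted p = 0.00757), Zm00001d049226 (2.56 ± 0.47, adjusted p = 0.00195) and Zm00001d019150 (2.48 ± 0.32, adjusted p = 0.000292). Tasseling libraries lay above all jointing libraries in 6 genes, a separation seen in 6.76% of all tested genes, and below them in 0 (3.59% of all). The 3 stage comparisons share libraries pairwise, so a gene's values in one are not independent of those in another. By mean log2 level, 66.7% of the 63 genes were highest at tasseling and 65.1% lowest at big flare, beside 41.9% and 32.5% of all tested genes.

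Differences between the hybrids were few. Middle against low gave 4 of 63 genes higher, where 2.62% of all tested genes were, and 0 lower, where 4.31% were. High against low gave 5 higher (3.58% of all tested genes) and 0 lower (5.63%), and high against middle 3 higher (2.37%) and 1 lower (2.07%). Both the 5 and the 3 include Zm00001d019406 and Zm00001d019407, which entered the tests through libraries of the high hybrid alone. In either direction 6.93%, 9.21% and 4.44% of all tested genes passed, and 6.35%, 7.94% and 6.35% of the 63 did. In limma, 7, 12 and 10 of the 63 had an unadjusted p under 0.05 in these comparisons, which again share libraries pairwise. Pooled over stages, the marker sums of the low, middle and high hybrid overlapped: 1810 to 7269, 2936 to 5936 and 1867 to 5087 FPKM for green tissue and 290.6 to 2273, 477.2 to 1649 and 572.3 to 4143 for the xylem and cellulose synthase genes. At tasseling the low hybrid lay below both others, with 2497 to 2986 FPKM for green tissue against 4457 to 4868 in the middle and 4034 to 4595 in the high hybrid, and with 658.4 to 865.2 for the xylem and cellulose synthase genes against 994.9 to 1291 and 1497 to 4143. The median log2 difference of the 15 green tissue genes tested was 0.72 for middle against low (15 of 15 above 0), 0.47 for high against low (14 of 15) and -0.27 for high against middle (0 of 15). None of the 15 passed in any of these comparisons in limma, with 5, 0 and 2 at an unadjusted p under 0.05. The part of these tissues in the hybrid differences was not tested.

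The chitinase genes named acidic endochitinase-like included Zm00001d019407, which had the lowest adjusted p of the 63 genes in a comparison of hybrids. It and Zm00001d019406 entered the tests through the high hybrid alone, since neither reached 1 FPKM in another. The p-values and separation of these genes are therefore no support for a difference between hybrids, and the values are given as a description. Zm00001d019407 was listed at 0 in all 6 libraries of the low hybrid and in 5 of 6 of the middle hybrid, with 0.37 FPKM in the sixth. In the high hybrid its jointing libraries read 2.23 and 4.2 FPKM, those of big flare 4.34 and 2.48, and those of tasseling 1.42 and 2.52. All 6 libraries of the high hybrid were above all 12 others, with adjusted p = 2.3e-05 against low and 6.23e-05 against middle. Zm00001d019406, 2 places away in the RefSeq gene order, read 2.25 and 1.83 (jointing), 1.08 and 1.45 (big flare) and 2.11 and 0.9 (tasseling) FPKM in the high hybrid and at most 0.99 in the low and 0.47 in the middle hybrid. High exceeded middle by 1.21 ± 0.25 (adjusted p = 0.0135) and low by 0.92 ± 0.25 (adjusted p = 0.0364), and the second call was lost in 8 of the 18 cases with 1 library left out, with adjusted p up to 0.105 without replicate 1 of low tasseling, and also with a pseudocount of 0.1 (adjusted p = 0.0992). Zm00001d019406 shares a listed match with Zm00001d019405, which did not exceed 0.51 FPKM, so the division of reads between them is uncertain. Levels this low in FPKM rest on few fragments.

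**Figure D5:**
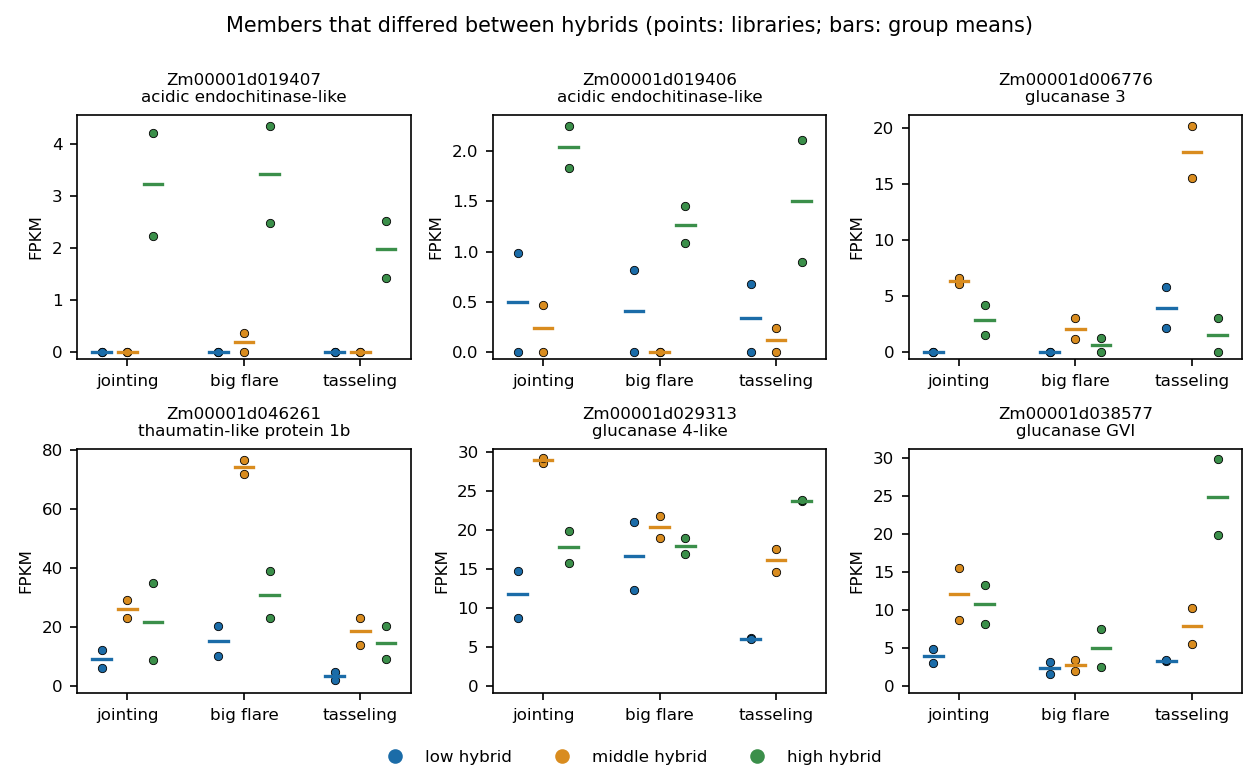
FPKM of 6 genes that differed between hybrids, by stage (x axis) and hybrid (colour); points are libraries and bars the mean of a group's 2 libraries. Zm00001d019407 lies at or near 0 in the low and middle hybrids and between 1.42 and 4.34 FPKM in the high hybrid, and Zm00001d006776 is highest in the middle hybrid at tasseling.

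The glucanase 3 gene Zm00001d006776 was highest in the middle hybrid. There its jointing libraries read 6.07 and 6.58 FPKM, those of big flare 1.15 and 3, and those of tasseling 20.2 and 15.5. In the low hybrid it was listed at 0 in all 4 jointing and big flare libraries and read 2.12 and 5.81 at tasseling, and in the high hybrid it stayed at or under 4.17 FPKM. Middle exceeded low by 2.15 ± 0.37 (adjusted p = 0.00276). High against middle was -1.73 ± 0.37 (adjusted p = 0.0169), a call lost without replicate 2 of middle big flare (adjusted p = 0.0537), replicate 1 of high jointing (0.0551) or replicate 1 of high big flare (0.0577) and with a pseudocount of 0.1 (0.0799). Its partner Zm00001d006777 passed in no hybrid comparison.

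Both thaumatin-like genes that differed were lowest in the low hybrid. Zm00001d047938 ran from 0.45 to 7.45 FPKM (median 6.17) in the low and from 11.6 to 42.2 FPKM (median 17.9) in the middle hybrid without overlap, a difference of 1.98 ± 0.44 (adjusted p = 0.0157). The high hybrid lay between them in mean, at 10.1 ± 6.58 FPKM (SD, n = 6), and overlapped with both. Zm00001d046261 read 71.9 and 76.7 FPKM at big flare in the middle hybrid, its highest values, and ran from 2.17 to 20.3 FPKM (median 8.34) in the low and from 8.82 to 38.9 FPKM (median 21.7) in the high hybrid. Middle exceeded low by 1.96 ± 0.34 (adjusted p = 0.0031) and high exceeded low by 1.23 ± 0.34 (adjusted p = 0.0415), and the latter call was lost in 13 of the 18 cases with 1 library left out, with adjusted p up to 0.127 without replicate 2 of high tasseling.

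Among other glucanases, Zm00001d029313 (isoform 4-like) was lower in the low hybrid than in both others. It ran from 6.05 to 21 FPKM (median 10.5) in the low, from 14.7 to 29.3 FPKM (median 20.4) in the middle and from 15.8 to 23.8 FPKM (median 19.4) in the high hybrid. The first big flare library of the low hybrid, at 21 FPKM, lay inside the range of both others. The second jointing library of the low hybrid, at 14.82 FPKM, lay inside that of the middle hybrid, whose lowest value was 14.68. The differences were 0.95 ± 0.16 (adjusted p = 0.00268) for middle and 0.85 ± 0.16 (adjusted p = 0.005) for high against low. Zm00001d038577 (isoform GVI) ran from 1.64 to 4.96 FPKM (median 3.27) in the low and from 2.55 to 29.9 FPKM (median 10.8) in the high hybrid, with the highest values in the high hybrid at tasseling (19.9 and 29.9), and high exceeded low by 1.5 ± 0.28 (adjusted p = 0.00382). The chitinase 10-like gene Zm00001d008199 differed between high and middle by 1.36 ± 0.35 (adjusted p = 0.0462), was lower at tasseling than at big flare by -0.94 ± 0.35 (adjusted p = 0.0473), and lost these calls in 13 and 9 of the 18 cases with 1 library left out, with adjusted p up to 0.134 (without replicate 2 of high tasseling) and 0.138 (without replicate 1 of middle big flare). It shares a listed match with Zm00001d049530.

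The number of hybrid calls moved with single libraries. High against low fell from 5 to 3 without replicate 2 of low big flare, replicate 1 of high jointing or either replicate of high big flare. High against middle fell from 4 to 2 without replicate 2 of middle big flare, replicate 1 of high jointing or replicate 1 of high big flare. The 4 calls of middle against low held whichever library was left out.

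No gene of the 63 passed the test of whether the stage changes differed between hybrids (limma, F test of the hybrid-by-stage interaction, in which 0.056% of all tested genes passed), although 8 fell under 0.05 before adjustment. The glucanase-like gene Zm00001d016545 came nearest, with an adjusted p of 0.438. With 2 libraries a group, this does not show that the hybrids changed alike.

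Genes with related roles, counted from lists drawn by name, moved as follows between big flare and tasseling. Of all tested genes, 22.4% passed as higher and 19.2% as lower in that comparison. Of the callose synthases, which build the substrate of the glucanases, 5 of 15 tested genes were higher and 1 lower, 40% in all beside 41.6% of all tested genes. The lowest adjusted p values were those of changes of 2.84 ± 0.37 (adjusted p = 0.000119) for the callose synthase 7-like gene Zm00001d044566 and 1.61 ± 0.24 (adjusted p = 0.000278) for the 12-like gene Zm00001d043909. Of the other defence proteins (germin-like proteins, thionins, defensins, barwin-type proteins and proteinase inhibitors), 8 of 22 tested genes were higher and 1 lower, 40.9% in all and again near the share of all tested genes. They included the germin-like gene Zm00001d016697 (1.91 ± 0.28, adjusted p = 0.000233) and the gamma-thionin gene Zm00001d027500 (2.74 ± 0.54, adjusted p = 0.00161), while the cysteine proteinase inhibitor gene Zm00001d012561 was lower (-1.32 ± 0.24, adjusted p = 0.00099). Of 8 immune signalling genes, the chitin elicitor-binding gene Zm00001d027532, whose rice homologue is a chitin receptor component, was higher (1.44 ± 0.39, adjusted p = 0.0108) and the NPR1 gene Zm00001d012660, named for the Arabidopsis co-activator of PR genes, was lower (-0.38 ± 0.13, adjusted p = 0.0366), so that 25% passed. Against jointing, where 29.9% of all tested genes passed, tasseling was higher in 5 and lower in 1 of the callose synthases (40%), higher in 5 and lower in 1 of the other defence proteins (27.3%), and passed in none of the 8 signalling genes (limma, 1 with an unadjusted p under 0.05). Between jointing and big flare, with 12.4% of all tested genes passing, 1 callose synthase passed in each direction (13.3%), 2 other defence proteins were lower (9.09%), and none of the signalling genes passed (limma, 1 with an unadjusted p under 0.05). Between hybrids, 1 callose synthase (6.67%) was higher in high than in low. Of the other defence proteins, 2 were lower in middle than in low (9.09%), 1 was lower in high than in low (4.55%) and 1 was higher in high than in middle (4.55%). The shares of all tested genes passing in the hybrid comparisons are those given above (6.93% for middle against low, 9.21% and 4.44% for the pairs with high).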

How the data were processed

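The authors deposited one table of FPKM values for 18 stem libraries of 9 groups, with a description of the protein matches of each gene. The submitters' processing notes name TopHat2, Cufflinks 2.2.1, Cuffdiff, DESeq 1.28.0 and the B73 RefGen_v4 build, without saying what each did; the reference tables at hand are of another build, so no coordinates or sequences are printed. Libraries were made from poly-A RNA with the TruSeq V2 kit, per the labels' protocols; whether counting used strand is not given in the sources used here.

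Genes were chosen from the match names, and 66 of the 93 were matched to a RefSeq gene, which gave the gene order. A gene was tested if 2 or more libraries reached 1 FPKM. log2(FPKM + 1) values were fitted with limma 3.58.1 in R 4.3.3 (9 group means, all 18 libraries, 9 residual degrees of freedom, variance trend), and p-values were adjusted over 26792 genes at a threshold of 0.05; the fit was first tested on simulated data. Named genes were, per comparison, those past the threshold, at most the 8 with the largest change each way, and the 4 most abundant of each class; Zm00001d021598, Zm00001d049359, Zm00001d021024, Zm00001d016545, Zm00001d032947, Zm00001d018323 and the genes given as neighbours, copies or extremes were named outside that rule, after their values were seen. Genes and lists were chosen with earlier results of these data known, and words such as methionine that contain thionin were removed from the lists after the names were seen. Relative depth came from the most frequent ratio between the values of 2866 low genes in each pair of libraries, with 96.7% of 153 library pairs within 0.05 log2. Alternatives were a pseudocount of 0.1, no filter, FPKM of 1 or more in 6 libraries, median-of-ratios scaling, quantile normalization, a replicate block, and leaving out libraries.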

Additional observations from a re-analysis of the deposited data

How the results depend on the processing

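Leaving out each library in turn, the number of genes passing ran from 2 to 9 for big flare against jointing, 33 to 43 for tasseling against big flare, 15 to 28 for tasseling against jointing, 4 to 6 for middle against low, 3 to 7 for high against low, 2 to 4 for high against middle and 0 to 0 for the interaction. Of the genes that passed with all libraries, 32 of 40 (tasseling against big flare), 14 of 21 (tasseling against jointing), 2 of 6, 4 of 4, 3 of 5 and 1 of 4 (the other comparisons in that order) passed in all 25 alternatives. The calls picked by the naming rule changed sign in none of them. Signs of other values in the text, such as those of genes that did not pass, were not followed. Requiring 1 FPKM in at least 6 libraries left 2 genes for high against middle, since Zm00001d019406 was then not tested and Zm00001d008199 had an adjusted p of 0.0509. The same replicate number did not pair the libraries: deviations from the group means correlated between -0.43 and 0.293 over 36 pairs of groups (median -0.007). With the replicate number as a block, 31 genes were higher and 6 lower at tasseling than at big flare, 21 higher and 2 lower than at jointing, and 6 lower at big flare than at jointing. Without low big flare 1 and high jointing 2, tasseling was higher in 36 and lower in 7 genes against big flare, and higher in 24 and lower in 4 against jointing. These are 2 of the 4 libraries closest to another stage, the pair an earlier account of these data singled out. Without all 4, no high jointing library would be left. Genes near 0 FPKM rest on few fragments, and an exact 0 can be a failed estimate.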
